A study of Mus musculus with 4 samples.

Results

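Non-cycling radial glia of the medial cortex of the mouse embryo at E16.5 are described here from single-nucleus RNA sequencing of 4 libraries. They were taken by their raw transcript counts per nucleus, as nuclei with at least 2 *Pax6* and at least 2 *Slc1a3* transcripts, no *Eomes*, *Gad1*, *Gad2* or *Lmx1a*, at most 1 transcript of *Mki67* and *Top2a* together, and fewer than 10 of *Ttr*. This gave 605 of 29656 retained nuclei, of which 185 and 200 came from replicates 1 and 2 of the Dnmt1 KO and 139 and 81 from control replicates 1 and 2. Below, 4 values in a row always stand in this order. Controls were Sst-Cre/tdTomato, and the Dnmt1 KO (KO) was Sst-Cre/tdTomato/Dnmt1 loxP2, so both groups carried the Cre driver and the tdTomato reporter and differed in the floxed *Dnmt1* alleles. Each library was made from 1 sample of medial neocortex, frozen before nuclei were isolated, with n = 2 libraries per genotype. Sst-Cre acts in postmitotic somatostatin-expressing interneurons, so radial glia are not the cells that this driver is known to target. *Sst* itself was at 0 to 0.446 CPM in the radial glia, where CPM is a gene's count after the transcripts of these nuclei, summed per library, were scaled to a common total. In such sums fewer nuclei with a transcript and fewer transcripts per nucleus cannot be told apart. The 0.446 CPM of *Sst* was 1 transcript. *Sst* was also low elsewhere, at 0.300 to 1.74 CPM in all other retained nuclei and 2.95 to 14.2 CPM in inhibitory neurons. Its level therefore does not show whether the driver acted in radial glia.

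Radial glia are the stem cells of the developing cortex. Their cell bodies line the ventricle, a long basal fibre guides migrating neurons, and they divide to renew themselves or to give rise to intermediate progenitors, which express *Eomes*, and to neurons. Notch signalling from neighbouring cells keeps them undifferentiated through the repressors *Hes1* and *Hes5*, and late in neurogenesis they turn to making astrocytes and oligodendrocytes.

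Before the results, the libraries themselves have to be set out. Control replicate 2 was of batch 2 and of 2 sublibraries and the other libraries were of batch 1 and of 8 sublibraries each, per the labels, so a comparison within batch 1 has a single control, and it is the one without control replicate 2. The radial glia held a median of 10497, 9783.5, 10560 and 15825 transcripts per nucleus and 3437, 3258.5, 3410 and 4254 genes. Replicate numbers went with sex, since *Xist* was at 1245 and 1081 CPM in replicates 1 of KO and control, and at 3.12 and 0 CPM in their replicates 2. No cell barcode was shared between libraries, and 3, 15, 8 and 4 of the radial glia were called doublets. Dnmt1 KO replicate 1 stood apart. Of 6560 genes at 20 CPM or more, 119 were at least 2-fold lower and 26 at least 2-fold higher in its radial glia than in all 3 other libraries, against 4, 2 and 44 lower and 27, 5 and 17 higher genes in Dnmt1 KO replicate 2 and control replicates 1 and 2. Results that rest on this library are also given without it.

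The thresholds cut through a continuous range. Exactly 2 *Pax6* transcripts, the lowest number allowed, were found in 205 of the 605 radial glia, while 316 nuclei met every other condition with 1 *Pax6* transcript. For *Slc1a3*, 47 nuclei lay just inside and 47 just outside. A single transcript of *Mki67* or *Top2a* was present in 180 of the radial glia, and 121 nuclei were outside with 2. With *Eomes* disregarded, 510 more nuclei would have been included, 127 of them with a single *Eomes* transcript. The median count was 3, 3, 3 and 4 for *Pax6* and 9, 9, 9 and 14 for *Slc1a3*. As these counts chose the nuclei, the level of *Pax6* (chromosome 2, 105499234 to 105530952, plus strand, GRCm39), of 335, 310.1, 330.2 and 257 CPM, and that of *Slc1a3* (chromosome 15, 8663604 to 8741595, minus strand), of 818, 932, 909.5 and 824 CPM, are a description only.

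The marker genes that the choice did not use were above the rest and above *Eomes* progenitors, but did not set the radial glia apart from cycling progenitors. Of the 19 genes of the radial glia list that were in the gene table, 19 were higher in the radial glia than in all other retained nuclei in each of the 4 libraries, 16 of them at least 2-fold, where the same held for 51.8% and 6.54% of 6250 genes at 20 CPM or more in the radial glia or the rest. Over *Eomes* progenitors, the non-cycling nuclei with at least 2 *Eomes* transcripts, 18 were at least 2-fold higher in each library, where 6.5% of all genes were. Cycling progenitors were the nuclei that met the same rule but with 2 or more *Mki67* and *Top2a* transcripts. Against these, 3 of the 19 genes were higher and 7 lower in each library, where 19.4% and 22.5% of all genes were, and 0 were at least 2-fold higher. Folds were computed with 5 CPM added to both sides, and no test is given because the nuclei were chosen by their transcripts. *Tnc*, the extracellular matrix protein tenascin C (chromosome 4, 63878014 to 63965443, minus strand), was at 1623 and 3043 CPM in KO libraries and 2229.9 and 1891 CPM in controls. All other retained nuclei had 156 to 255 CPM of *Tnc*, so the fold was 7.28 to 11.8, and it was 14.1 to 29.2 over *Eomes* progenitors. *Hes5*, a Notch target (chromosome 4, 155045373 to 155046828, plus strand), was at 29.8 and 21.8 CPM in KO libraries and 19.1 and 10.6 CPM in controls against 0.908 to 3.505 CPM in the rest. *Fabp7*, a fatty acid binding protein of radial fibres, was at 109 and 227 CPM in KO libraries and 239 and 245 CPM in controls. Its lowest value lay in Dnmt1 KO replicate 1, and the other libraries were close to each other. The receptor phosphatase *Ptprz1* had the same low library, with 1485 and 2980.0 CPM in KO libraries and 2728 and 2348 CPM in controls.

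Transcription factors of the neural stem cell state were above the rest in every library. *Sox9* was at 58.2, 33.9, 42.4 and 29.9 CPM in the radial glia and at 5.72 to 8.80 CPM in all other nuclei. *Sox2* was at 34.8, 27.2, 31.4 and 40.6 CPM, with 10.9 to 14.0 CPM in the rest but 31.7 to 43.6 CPM in inhibitory neurons, so it did not set the radial glia apart from these, and its counts are uncertain where *Sox2ot* overlaps it on the same strand. *Gli3*, which represses Hedgehog targets in the dorsal telencephalon, was at 1457, 1783, 1939.6 and 1789 CPM and 4.03 to 7.51-fold above the rest. The intermediate filament genes *Vim* and *Nes* were at 63.7, 63.3, 67.0 and 91.8 CPM and at 79.1, 44.6, 101 and 105 CPM, and 2.97 to 5.07-fold and 2.64 to 4.58-fold above the rest. *Nes* was lowest in Dnmt1 KO replicate 2 and both Dnmt1 KO libraries were below both controls.

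**Figure D1:**
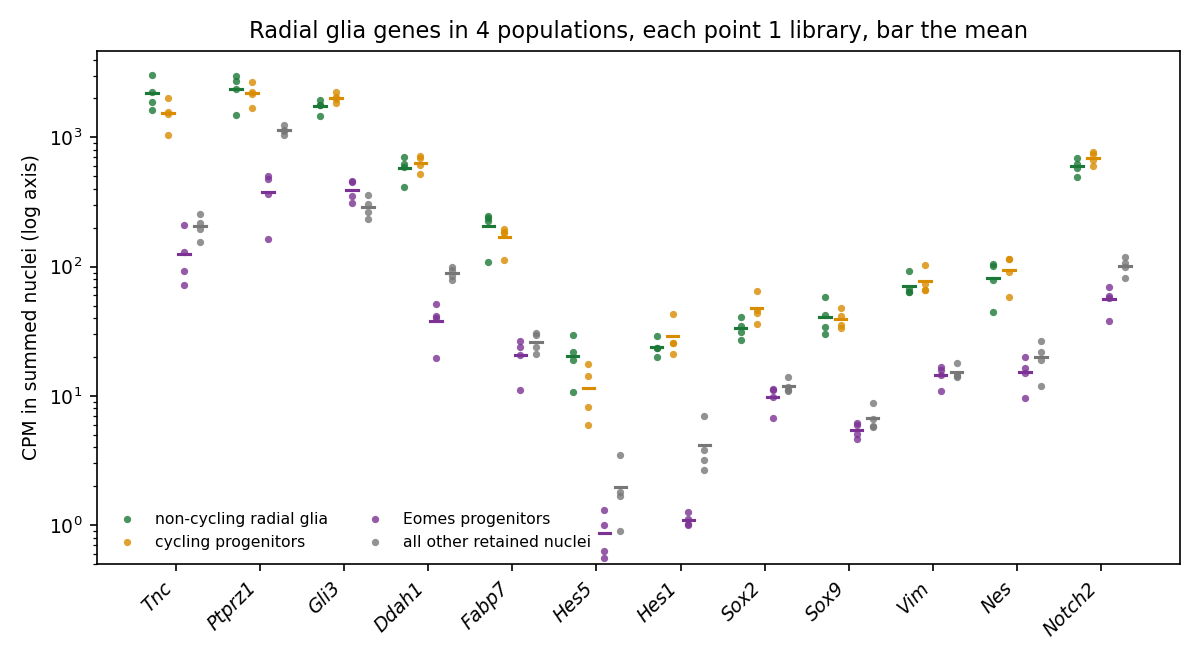
CPM on a log axis of 12 radial glia genes in non-cycling radial glia, cycling progenitors, Eomes progenitors and all other retained nuclei, where each point is a library (2 Dnmt1 KO and 2 control) and each bar the mean of the 4. For each gene the radial glia and the cycling progenitors lie together and above both other populations, and levels are to be compared within a gene only.

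Markers of other cell types were examined next. The 7 excitatory neuron markers were lower than in the rest in every library, where 24.9% of all genes were. Their sum was 352, 922, 838 and 1254 CPM against 2418 to 4249 CPM. The inhibitory neuron markers summed to 44.1 to 65.2 CPM against 210 to 773 CPM, where the rule itself held *Gad1* and *Gad2* at 0. Of 5 astrocyte markers 1 was higher and 0 lower in all 4 libraries, where 51.8% and 24.9% of all genes were. Their sum of 34.8, 70.8, 88.6 and 57.2 CPM against 9.18 to 22.3 CPM was mostly *Aldh1l1* in all libraries but Dnmt1 KO replicate 1. The 5 oligodendrocyte precursor markers summed to 0.497 to 2.67 CPM, with *Pdgfra* and *Sox10* at 0 in 3 of the 4 libraries, where 3 transcripts would have amounted to 1.34 to 2.00 CPM. Microglial markers summed to 9.95, 9.80, 9.84 and 6.65 CPM, above the 5.99, 9.52, 7.02 and 5.83 CPM of the rest in each library. Mural markers, at 18.9, 36.5, 29.5 and 27.3 CPM, were above the rest (22.6, 26.4, 18.8 and 12.7 CPM) in 3 libraries. Of this sum *Pdgfrb* made up 17.9, 34.3, 27.7 and 25.3 CPM. The other 2 mural markers, *Rgs5* and *Kcnj8*, were lower than in the rest in every library. Endothelial markers summed to 1.84 to 6.65 CPM against 35.0 to 76.4 CPM in the rest, and ependymal markers to 0.615 to 4.01 CPM against 0.333 to 1.11 CPM. Meningeal markers, at 5.97, 8.02, 1.84 and 0.665 CPM against 1.58, 23.4, 1.61 and 1.90 CPM in the rest, were above it in replicates 1 of KO and control. *Dcn* made up 5.47, 5.79, 1.23 and 0.665 CPM of the meningeal sum. The cortical hem list summed to 20.3 to 41.9 CPM, of which *Rspo3* made up 19.1 to 41.4 CPM and *Wnt3a* 0 CPM, where the rule itself held *Lmx1a* at 0. Cajal-Retzius markers summed to 65.0 CPM in Dnmt1 KO replicate 2 and to 12.3 to 12.9 CPM in the other libraries. In Dnmt1 KO replicate 2 *Reln* made up 64.6 CPM of this and *Trp73* 0.446 CPM, and *Lhx5* was at 0 CPM in every library. Choroid plexus markers summed to 15.6 CPM in Dnmt1 KO replicate 2, 13.4 CPM of it *Ttr*, against 0 to 3.07 CPM in the other libraries. The part of these transcripts in the results below was not tested.

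Notch pathway genes were next examined by their roles. Of the 19 genes on the list, 14 were higher and 3 lower than in the rest in all 4 libraries, where 51.8% and 24.9% of all genes were. Against *Eomes* progenitors 11 were higher and 6 lower, where 35.3% and 29.1% of all genes were. The receptors were on the radial glia side. *Notch2* was at 491 and 617 CPM in KO libraries and 696 and 581 CPM in controls and 8.36 to 11.6-fold above *Eomes* progenitors. *Notch1* was at 302, 248, 272 and 225 CPM and *Notch3* at 119.9, 101, 105 and 73.2 CPM, each above the 108 to 129 CPM and 12.3 to 15.4 CPM of *Eomes* progenitors. The ligand *Dll1*, which presents the signal, was on the other side, at 15.4, 8.46, 3.07 and 9.31 CPM in radial glia and at 24.6 to 44.8 CPM in *Eomes* progenitors. The glycosyltransferases that tune Notch receptors were divided in the same way. *Lfng* was at 40.3, 28.1, 37.5 and 33.9 CPM in radial glia and at 1.02 to 1.51 CPM in *Eomes* progenitors, whereas *Mfng* was at 10.4, 5.35, 13.5 and 11.97 CPM and at 71.5 to 111 CPM. The ligand *Jag1* was at 8.95, 48.1, 34.4 and 33.3 CPM, with the low value in Dnmt1 KO replicate 1. The coactivator *Maml2* was at 1945 and 1643 CPM in KO libraries and 1680.1 and 1354 CPM in controls and 2.69 to 3.31-fold above the rest.

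Among the Notch targets, *Hes1* (chromosome 16, 29882134 to 29886643, plus strand) was at 28.9 and 20.05 CPM in KO libraries and 23.4 and 23.3 CPM in controls and at 1.01 to 1.26 CPM in *Eomes* progenitors. Against cycling progenitors 3 of the 19 genes of the list were higher and 3 lower, where 19.4% and 22.5% of all genes were. *Hes5* was among the 3 higher ones, with a fold of 1.39 to 1.81. Cycling progenitors had 17.7, 14.3, 8.26 and 6 CPM of *Hes5* in the same order of libraries. It was highest in Dnmt1 KO replicate 1 and lowest in control replicate 2 in both populations. After each nucleus was thinned to 5000 transcripts, *Hes5* was found in 12.2, 7.85, 9.56 and 8.64% of the radial glia, in 3.21 to 9.26% of cycling progenitors, in 0 to 0.581% of *Eomes* progenitors and in 0.147 to 0.984% of inhibitory neurons, which serve as background. Without thinning, the shares of radial glia were 26.5, 20.5, 17.3 and 14.8%, with 0.553 to 1.56% of inhibitory neurons. The targets *Hey1* and *Nrarp* were at 2.46 to 5.99 CPM and at 5.97 to 8.65 CPM.

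The 200 bases before the start of the canonical transcript of *Hes1* (chr16:29883927-29884126, plus strand), of *Hes5* (chr4:155045173-155045372, plus strand) and of *Nkd1* (chr8:89247725-89247924, plus strand) are printed because these genes are read as outputs of the Notch and Wnt pathways. Capitals mark the letters GTGGGAA, the core bound by the Notch effector RBPJ, in *Hes1* and *Hes5*, and CTTTGAT, the core of TCF and LEF factors, in *Nkd1*. The annotated *Hes1* gene begins upstream of its canonical transcript, so its window lies within the gene. Sequences are from GRCm39 with starts from GENCODE vM39, written 5′ to 3′ on the strand of the gene.
Hes1: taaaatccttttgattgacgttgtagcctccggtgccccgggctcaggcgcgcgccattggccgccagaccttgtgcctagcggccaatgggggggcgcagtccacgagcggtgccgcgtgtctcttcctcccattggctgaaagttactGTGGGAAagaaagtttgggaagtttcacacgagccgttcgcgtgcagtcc
Hes5: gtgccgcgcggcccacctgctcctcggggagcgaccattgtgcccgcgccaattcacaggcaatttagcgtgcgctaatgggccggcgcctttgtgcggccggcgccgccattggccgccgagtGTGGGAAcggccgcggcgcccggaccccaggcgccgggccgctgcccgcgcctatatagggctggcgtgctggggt
Nkd1: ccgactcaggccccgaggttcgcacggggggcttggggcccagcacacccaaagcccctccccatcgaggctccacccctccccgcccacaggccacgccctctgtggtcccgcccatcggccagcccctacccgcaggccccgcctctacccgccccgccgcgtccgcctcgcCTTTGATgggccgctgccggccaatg

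The RBPJ letters lay 50 to 44 bases before the start of *Hes1* and 76 to 70 bases before that of *Hes5*. In *Hey1* the same letters were read on the reverse strand, 175 to 169 bases before the start. Both motifs were searched on both strands, and among 21738 promoters of protein-coding genes 4.29% held the RBPJ letters and 2.18% the TCF and LEF letters within 200 bases. The windows of *Nrarp*, *Axin2*, *Lef1*, *Wnt8b* and *Tnc* held neither. A match is a description of the letters only.

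*Mki67* and *Top2a*, on which the rule sets its limit, are highest in G2 and mitosis, and the DNA replication genes were examined apart from them. All 20 genes of the S phase list were higher in the radial glia than in the rest and than in *Eomes* progenitors in each library, with median log2 folds of 1.33 and 1.48 where the medians over 6250 genes were 0.19 and 0.03. Against cycling progenitors, which met the same rule but with 2 or more *Mki67* and *Top2a* transcripts, 7 were higher and 4 lower, where 19.4% and 22.5% of all genes were. *Mcm6*, a subunit of the replicative helicase, was at 108 and 68.6 CPM in KO libraries and 111 and 117 CPM in controls. It was at 54.2 to 64.9 CPM in cycling progenitors, below the radial glia of every library. The helicase subunits *Mcm2* to *Mcm5* were at 13.8 to 32.3 CPM, 22.7 to 47.4 CPM, 18.7 to 39.4 CPM and 29.0 to 57.8 CPM in the order of their numbers, with the lowest value of each in Dnmt1 KO replicate 2. *E2f1*, a transcription factor for entry into S phase, was at 38.3, 20.5, 38.1 and 34.6 CPM against 19.1 to 21.7 CPM in cycling progenitors.

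Some genes of the list were on the other side. *Tyms*, which makes thymidylate, was at 39.3, 33.0, 45.5 and 33.9 CPM in the radial glia and at 57.2 to 67.6 CPM in cycling progenitors, and *Rrm2*, a subunit of ribonucleotide reductase, was at 11.4, 6.68, 14.1 and 21.3 CPM against 19.7 to 31.1 CPM. In thinned nuclei *Mcm6* was found in 34.4, 24.6, 39.0 and 39.5% of the radial glia, in 19.9 to 26.8% of cycling progenitors and in 3.37 to 5.57% of inhibitory neurons. Without thinning the shares of *Mcm6* were 38.0 to 66.7% in the radial glia and 8.15 to 11.6% in inhibitory neurons. *Hells*, a chromatin remodeller of replicating cells, was found in 46.1, 37.7, 50.7 and 44.4% of thinned radial glia, in 6.81 to 11.0% of *Eomes* progenitors and in 4.198 to 7.21% of inhibitory neurons. Non-cycling in the name of these nuclei therefore stands for few transcripts of *Mki67* and *Top2a*, and replication transcripts were present.

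The 20 genes of the G2 and mitosis list were all lower than in cycling progenitors in every library, with a median log2 fold of -3.27. *Kif11*, a motor of the spindle, was at 6.96, 7.57, 6.76 and 7.32 CPM in the radial glia and at 289.6 to 426 CPM in cycling progenitors. *Cenpe*, a kinetochore motor, was at 11.9, 14.3, 19.7 and 9.31 CPM against 351 to 485 CPM. These genes share their phase with the 2 genes of the rule, so their low level is part of the choice of nuclei. Against the rest, 18 were lower and 2 higher, *Smc4* and *Hmgb2*, where 24.9% and 51.8% of all genes were. Against *Eomes* progenitors 14 were higher and 0 lower (35.3% and 29.1% of all genes), with a median log2 fold of 0.35. Among 12 genes of G1 and cell cycle exit, 9 were higher and 1 lower than in the rest (51.8% and 24.9% of all genes), 1 was higher and 4 lower than in cycling progenitors (19.4% and 22.5%), and 5 were higher and 5 lower than in *Eomes* progenitors (35.3% and 29.1%). They include *Ccnd2*, a G1 cyclin, at 268 and 252 CPM in KO libraries and 296 and 305 CPM in controls with 3.37 to 4.63-fold over the rest, and its partner kinase *Cdk6* at 278, 249, 388 and 412 CPM.

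**Figure D2:**
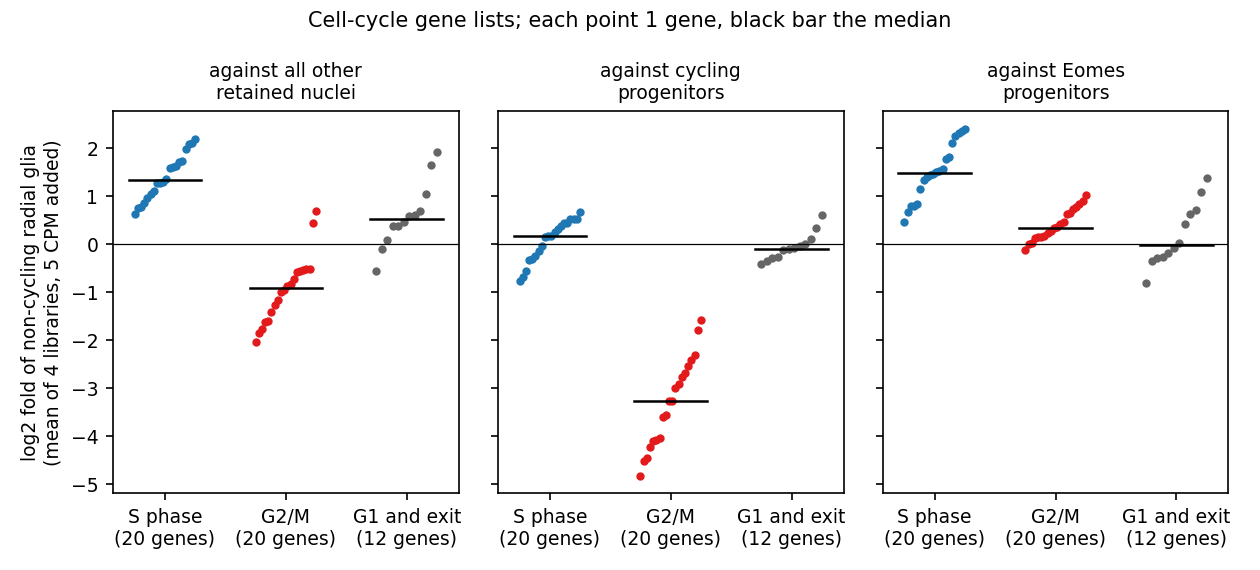
Log2 fold (mean of 4 libraries, 5 CPM added to both sides) of S phase, G2/M and G1 and exit genes in non-cycling radial glia against all other retained nuclei, cycling progenitors and Eomes progenitors, where each point is a gene and each bar the median. S phase genes lie above 0 against the rest and Eomes progenitors with medians of 1.33 and 1.48, and G2/M genes lie below 0 against cycling progenitors with a median of -3.27.

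Genes of neurogenic commitment were compared with each population. Of 14 on the list, 0 were higher and 13 lower than in *Eomes* progenitors in all 4 libraries (35.3% and 29.1% of all genes), while 3 were higher and 5 lower than in the rest (51.8% and 24.9%). The proneural factor *Neurog2* was at 19.9, 8.02, 8.61 and 15.3 CPM and at 43.3 to 54.3 CPM in *Eomes* progenitors. *Neurod1*, downstream of it, was at 8.95, 15.6, 9.22 and 16.6 CPM against 57.6 to 80.9 CPM. Compared with cycling progenitors 8 were higher and 0 lower (19.4% and 22.5% of all genes). *Sox11* and *Sox4*, expressed in newborn neurons, were at 148, 187, 223 and 305 CPM and at 50.2, 57.5, 81.8 and 81.1 CPM, below 317 to 634 CPM and 103 to 179 CPM in *Eomes* progenitors. *Rbfox3*, the antigen NeuN of neurons, was at 255, 245, 214 and 351 CPM in the radial glia, 2.24 to 4.49-fold above cycling progenitors and 5.19 to 11.1-fold below *Eomes* progenitors. In thinned nuclei it was found in 16.1, 25.7, 16.9 and 21.0% of the radial glia and in 88.8 to 96.7% of *Eomes* progenitors, and without thinning in 21.6 to 31% of the radial glia.

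Of 24 genes of the glial lineages, 11 were higher and 1 lower than in the rest, where 51.8% and 24.9% of all genes were, and 5 were at least 2-fold higher (6.54% of all genes). Against *Eomes* progenitors 11 were higher and 4 lower (35.3% and 29.1%), and against cycling progenitors 4 were higher and 3 lower (19.4% and 22.5%). The list summed to 19424, 15416, 14032 and 14232 CPM in the radial glia. In *Eomes* progenitors it was higher in every library, at 20707, 16372, 14536 and 15599 CPM. *Nfia*, a transcription factor of the switch to gliogenesis, was at 5305 and 3967 CPM in KO libraries and 3868 and 3412 CPM in controls, and *Zbtb20*, another factor of that switch, was at 7309.9 and 6047 CPM in KO libraries and 4588 and 4566 CPM in controls with 2.53 to 2.98-fold over the rest. In thinned nuclei *Zbtb20* was found in 98.8 to 100% of the radial glia and in 98.2 to 99.2% of *Eomes* progenitors. *Fgfr3*, a receptor of astrocyte precursors, was at 75.1, 93.1, 101 and 97.8 CPM. *Bcan*, a proteoglycan of glia, was at 146, 63.3, 85.5 and 76.5 CPM and 5.09 to 6.61-fold above the rest. The markers of mature astrocytes *Gfap*, *Aqp4* and *S100b* were at 0 to 8.95 CPM, 0 to 4.92 CPM and 0 to 0.665 CPM. *Aldh1l1*, a folate enzyme of astrocytes, was at 5.97 and 51.7 CPM in KO libraries and 67.6 and 50.5 CPM in controls, with Dnmt1 KO replicate 1 far below the other libraries. The same split was seen in thinned nuclei, where 2.78, 15.2, 16.2 and 18.5% of radial glia held an *Aldh1l1* transcript and 0 to 0.984% of inhibitory neurons did (3.24 to 30.9% and 0.243 to 1.32% without thinning). *Egfr*, a receptor of late progenitors, had the same low library with 4.48, 27.6, 43.0 and 18.6 CPM, and *Hopx*, a marker of outer radial glia, was highest there with 47.3, 12.03, 32.0 and 21.3 CPM. The list of 10 genes of outer and late radial glia summed to 3322, 6280, 5214 and 4523 CPM, lowest in Dnmt1 KO replicate 1. Such a sum mostly follows its most abundant genes. Of the 10 genes, 6 were higher and 1 lower than in the rest (51.8% and 24.9% of all genes). Against *Eomes* progenitors 8 were higher and 1 lower (35.3% and 29.1%), and against cycling progenitors 2 were higher and 1 lower (19.4% and 22.5%).

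Receptors and targets of the morphogens that pattern the cortex were compared next. Of 23 genes of the FGF, Shh and BMP pathways, 17 were higher and 2 lower than in the rest (51.8% and 24.9% of all genes), and 16 were higher and 3 lower than in *Eomes* progenitors (35.3% and 29.1%). Against cycling progenitors 0 were higher and 9 lower (19.4% and 22.5%), with a median log2 fold of -0.10. The Shh coreceptors *Cdon* and *Boc* were at 2239.6, 1044, 2071 and 1614 CPM and at 414, 344, 483 and 433 CPM, with 382 to 808 CPM and 181 to 234 CPM in *Eomes* progenitors. The Shh targets *Ptch1* and *Gli1* were at 23.9, 74.4, 52.3 and 48.6 CPM and at 1.49, 16.0, 7.38 and 14.0 CPM, both lowest in Dnmt1 KO replicate 1. The BMP receptor *Bmpr1b* was at 376, 286, 441 and 239 CPM and at 36.3 to 87.5 CPM in *Eomes* progenitors. *Etv5*, a target of FGF signalling, was at 92.5, 60.6, 110.1 and 89.8 CPM against 3.60 to 11.2 CPM, and *Id4*, an inhibitor of proneural factors, was at 104, 42.8, 75.6 and 112 CPM against 5.20 to 11.1 CPM.

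In the Wnt pathway 13 of 22 genes were higher and 2 lower than in the rest, beside 51.8% and 24.9% of all genes. The repressor *Tcf7l1*, which holds Wnt targets off, was at 316 and 233 CPM in KO libraries and 359 and 234 CPM in controls, 5.52 to 9.44-fold above *Eomes* progenitors, and *Sfrp1*, a secreted antagonist, was at 197, 154, 206 and 215 CPM against 43.9 to 66.9 CPM. The ligand *Wnt7a* was at 101, 64.2, 96.6 and 126 CPM against 11.2 to 18.0 CPM. *Lef1*, a Wnt effector of the hippocampal primordium (chromosome 3, 130903919 to 131018005, plus strand), was at 335 and 143 CPM in KO libraries and 106 and 49.9 CPM in controls. It was highest in Dnmt1 KO replicate 1 and lowest in control replicate 2, and in thinned nuclei it was found in 58.3, 26.2, 23.5 and 19.8% of radial glia and in 1.98 to 4.92% of inhibitory neurons (without thinning in 33.0 to 72.4% of radial glia). The feedback genes *Axin2* and *Nkd1* were also highest in that library, with 84.6, 29.8, 43.7 and 33.3 CPM and 67.7, 27.2, 22.8 and 4.66 CPM. *Wnt8b*, a ligand of the dorsomedial cortex, was at 35.3, 5.35, 3.69 and 0 CPM, where 3 transcripts in control replicate 2 would have been 2.00 CPM. Thus *Lef1*, *Axin2*, *Nkd1* and *Wnt8b* were all highest in Dnmt1 KO replicate 1. The part of cortical hem transcripts in this was not tested. The hem list given above cannot serve for it, as the rule held *Lmx1a* at 0 and the sum was mostly *Rspo3*.

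Of 28 area and midline patterning genes, 13 were higher and 8 lower than in the rest (51.8% and 24.9% of all genes). *Meis2*, a homeodomain factor, was at 3204 and 4253 CPM in KO libraries and 4309.8 and 4749 CPM in controls, lowest in Dnmt1 KO replicate 1. *Nr2f1*, which is graded along the axes of the cortex, was at 72.1, 177, 114 and 170.3 CPM, and *Nr2f2* at 0.497, 31.6, 9.22 and 5.32 CPM, both lowest in that library. *Emx1* and *Emx2*, factors of the dorsal telencephalon, were at 79.1, 54.4, 44.9 and 49.9 CPM and at 39.8, 23.6, 18.4 and 18.6 CPM, both highest there. *Lhx2*, a selector of cortex, was at 239, 142, 176 and 221 CPM.

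Genes of cell contact were examined in separate lists. Among 20 genes of apical junction, polarity and cilium, 11 were higher and 4 lower than in the rest, close to the 51.8% and 24.9% of all genes, but 7 were at least 2-fold higher (6.54% of all genes). Against *Eomes* progenitors 11 were higher and 5 lower (35.3% and 29.1%). *Shroom3*, which constricts apical surfaces, was at 553, 537, 627 and 821 CPM against 86.8 to 125 CPM in *Eomes* progenitors, and *Crb2*, an apical determinant, was at 28.4, 22.7, 43.0 and 41.2 CPM against 2.18 to 3.60 CPM. *Pard3b* was at 935, 834, 764 and 637 CPM against 123 to 261 CPM in the rest. Of 16 Eph, ephrin and neuroligin genes, 4 were higher and 6 lower than in the rest, beside the same shares. The receptor *Epha4* was at 1510.3 and 987 CPM in KO libraries and 1197 and 1222 CPM in controls and 1.74 to 2.57-fold above the rest, whereas *Epha3* was at 143, 617, 511 and 482 CPM against 2179.6 to 2668 CPM in *Eomes* progenitors. *Nlgn1*, a postsynaptic adhesion protein, was at 2176 and 4596 CPM in KO libraries and 3454 and 4013 CPM in controls, and at 3863 to 5069 CPM in the rest.

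Of 11 genes of glutamate uptake and metabolism, 8 were higher and 1 lower than in the rest, where 51.8% and 24.9% of all genes were. *Kcnj10*, a glial potassium channel, was at 95.02, 62.8, 78.7 and 102 CPM against 9.85 to 21.8 CPM, and *Gabrb1*, a GABA receptor subunit, was at 1309, 1264, 723 and 960.4 CPM against 182 to 359 CPM. The DNA methylation genes had 6 of 10 higher and 1 lower than in the rest, a count near those shares. *Dnmt1* itself (chromosome 9, 20817945 to 20871184, minus strand), which copies methylation at replication, was at 112, 70.4, 124 and 95.1 CPM in the radial glia. Its level in the rest was 47.2 to 60.4 CPM, in cycling progenitors 86.5 to 126 CPM and in *Eomes* progenitors 32.1 to 44.8 CPM. The de novo methyltransferase *Dnmt3a* was at 214, 159, 213 and 167 CPM against 60.4 to 74.5 CPM in the rest, and *Uhrf1*, which recruits DNMT1 to hemimethylated DNA, was at 34.8, 31.2, 59.0 and 36.6 CPM against 6.86 to 10.3 CPM.

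Beyond the lists, the genes most above the rest were ranked by the lowest fold of the 4 libraries. *Tnc* came first, with, among the next, the engulfment receptor *Megf10* (5.70 to 9.34-fold), *Veph1* (5.56 to 9.80-fold), *Bcan*, the phospholipase *Plce1* (4.93 to 7.71-fold), *Emid1* (4.85 to 6.64-fold), *Creb5* (4.85 to 8.11-fold), the chloride channel family member *Ttyh1* (4.78 to 6.09-fold) and *Ccdc80* (4.75 to 7.501-fold). Over *Eomes* progenitors the first were *Tnc*, *Ddah1*, which degrades methylarginines (12.5 to 17.0-fold), *Plce1* (11.3 to 19.1-fold) and *Ccdc80* (10.7 to 18.7-fold). In the opposite direction *Kif26b* was 14.2 to 27.2-fold and *Myt1*, a neuronal zinc finger factor, 7.18 to 11.6-fold lower than in *Eomes* progenitors. Against cycling progenitors 2 of 6250 genes (0.032%) were at least 2-fold higher in every library, *Rbfox3* and *Myt1*. *Myt1* was at 40.8, 48.1, 42.4 and 59.2 CPM in the radial glia and at 10.9 to 24.8 CPM in cycling progenitors. The genes most below cycling progenitors were mitotic, led by *Cdca2*, *Kif11* and *Tpx2*.

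How the radial glia varied among themselves was examined along *Meis2*. Within each library, the nuclei thinned to 5000 transcripts (180, 191, 136 and 81) were put in order of *Meis2* into 3 groups of like size, called low, middle and high. The genes set beside it were chosen after their values were seen, and the nuclei of a group share a library, so no test is given. *Meis2* rose by construction, from 853 to 6767 CPM in Dnmt1 KO replicate 1 and from 2444 to 7948 CPM in control replicate 2. *Ephb1*, an Eph receptor, was at 2433, 780.0 and 167 CPM in the low, middle and high groups of Dnmt1 KO replicate 1 and at 1572, 262 and 88.9 CPM in those of replicate 2. In control replicate 1 these levels were 1069.6, 213 and 22.2 CPM and in control replicate 2 511, 148 and 178 CPM. The Meis2-low group was highest for *Ephb1* in each library, and only in control replicate 2 was the middle group below the high group. *Zbtb20* was likewise highest in the Meis2-low group, with 10170.0 against 4617 CPM in the high group of Dnmt1 KO replicate 1, 9131 against 4959 CPM in replicate 2, and 5630.4 against 3858 and 5793 against 4378 CPM in the controls. *Lef1* was at 533, 400.0, 157 and 66.7 CPM in the Meis2-low groups and at 123, 19.0, 48.9 and 37.0 CPM in the high groups. The gap was smallest in control replicate 2, where each group held 27 nuclei. *Gli3* was lowest in the Meis2-low group of each library, at 1197, 1197, 1291 and 1474 CPM against 2077, 2803, 2502 and 2259 CPM.

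**Figure D3:**
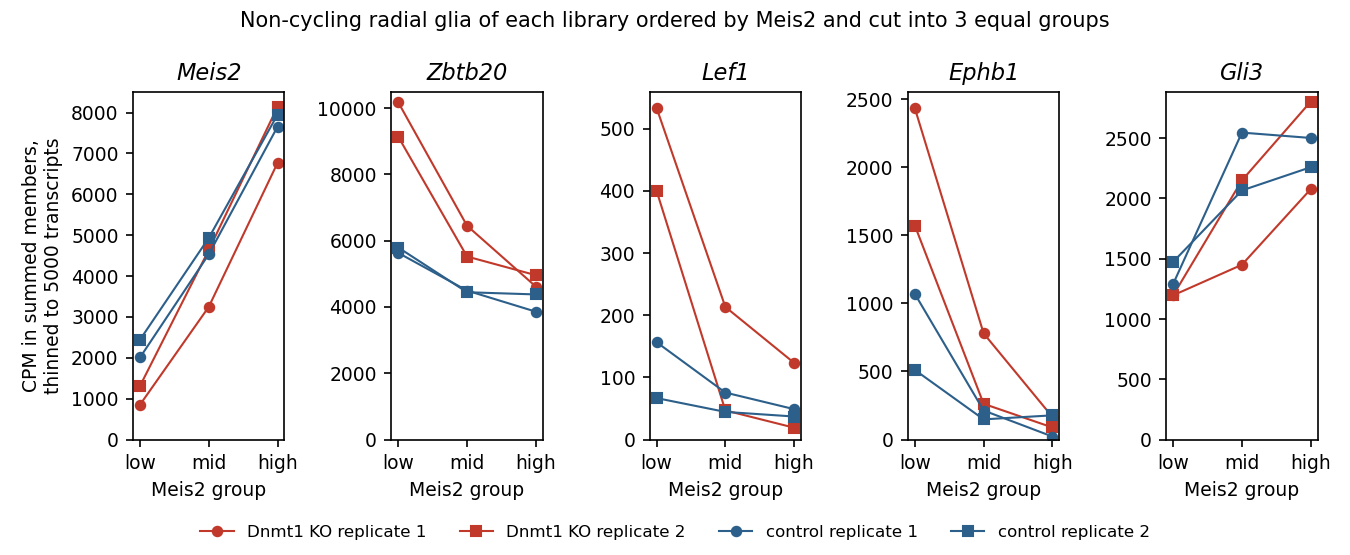
CPM of Meis2, Zbtb20, Lef1, Ephb1 and Gli3 in Meis2-low, Meis2-middle and Meis2-high radial glia of each library after thinning to 5000 transcripts, with 1 line per library. Ephb1, Zbtb20 and Lef1 are highest and Gli3 lowest in the Meis2-low group of all 4 libraries.

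Spearman's rho over the nuclei of a library, given as a description, was -0.756, -0.590, -0.562 and -0.269 for *Ephb1* and *Meis2*. It was 0.316 to 0.679 for *Zbtb20* and *Ephb1* and -0.615 to -0.197 for *Zbtb20* and *Meis2*. For *Lef1* and *Meis2* rho was -0.466, -0.504, -0.135 and -0.0767, and thus weak in both controls. *Ptprz1* and *Tnc* went together with rho of 0.344, 0.696, 0.567 and 0.663. The nuclei of a library share its depth of sequencing and were all thinned to one number of transcripts.

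The first comparison of the genotypes was the share of nuclei that were radial glia. They were 3.28% (185 of 5640, exact 95% interval 2.83 to 3.78%) and 1.66% (200 of 12064, 1.44 to 1.90%) of retained nuclei in KO libraries and 1.97% (139 of 7047, 1.66 to 2.32%) and 1.65% (81 of 4905, 1.31 to 2.05%) in the controls. The intervals cover counting error only. Dnmt1 KO replicate 1 was above all others and replicate 2 lay between the controls, so the groups overlapped. The means were 2.47 ± 1.15% and 1.81 ± 0.227% (SD, n = 2 each), and their difference was 0.657 points (p 0.667 by a two-sided exact permutation test, whose smallest p with 2 libraries a group is 0.333). Without Dnmt1 KO replicate 1 the difference was -0.154 points, and within batch 1 it was 0.497 points. With each nucleus thinned to 5000 transcripts, the shares were 2.18 and 1.09% against 1.21 and 1.34% (difference 0.359 points). Dnmt1 KO replicate 2 was then below both controls. In a share, more radial glia and fewer other nuclei cannot be told apart.

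Of the progenitors that met the rule apart from *Mki67* and *Top2a*, the non-cycling ones made up 29.2% (185 of 634) and 26.3% (200 of 760) of KO nuclei and 29.1% (139 of 477) and 22.4% (81 of 362) of control nuclei. The means of 27.7 ± 2.03% and 25.8 ± 4.78% (SD, n = 2 each) differed by 1.99 points (exact permutation p 0.667). The rule counts transcripts, and the nuclei of control replicate 2 were the deepest. With each nucleus thinned to 5000 transcripts, the shares became 38.8 and 33.4% against 29.7 and 32.6%, and the groups no longer overlapped (difference 4.98 points, exact permutation p 0.333, the smallest possible). Within batch 1, without control replicate 2, the unthinned difference was -1.39 points. The thinned shares of both KO libraries were above the 29.7% of control replicate 1.

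Of non-cycling progenitors, counting radial glia and *Eomes* progenitors together, radial glia made up 25.8% (185 of 717) and 26.0% (200 of 770) of KO nuclei and 26.0% (139 of 535) and 18.0% (81 of 449) of control nuclei. The means of 25.9 ± 0.122% and 22.0 ± 5.62% (SD, n = 2 each) differed by 3.88 points (exact permutation p 1.00), which rested on control replicate 2, since within batch 1 the difference was -0.0933 points. Thinned, the shares were 26.0 and 27.8% against 23.3 and 20.9% (difference 4.82 points, exact permutation p 0.333). Both thinned KO shares were thus also above control replicate 1, the control of batch 1.

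**Figure D4:**
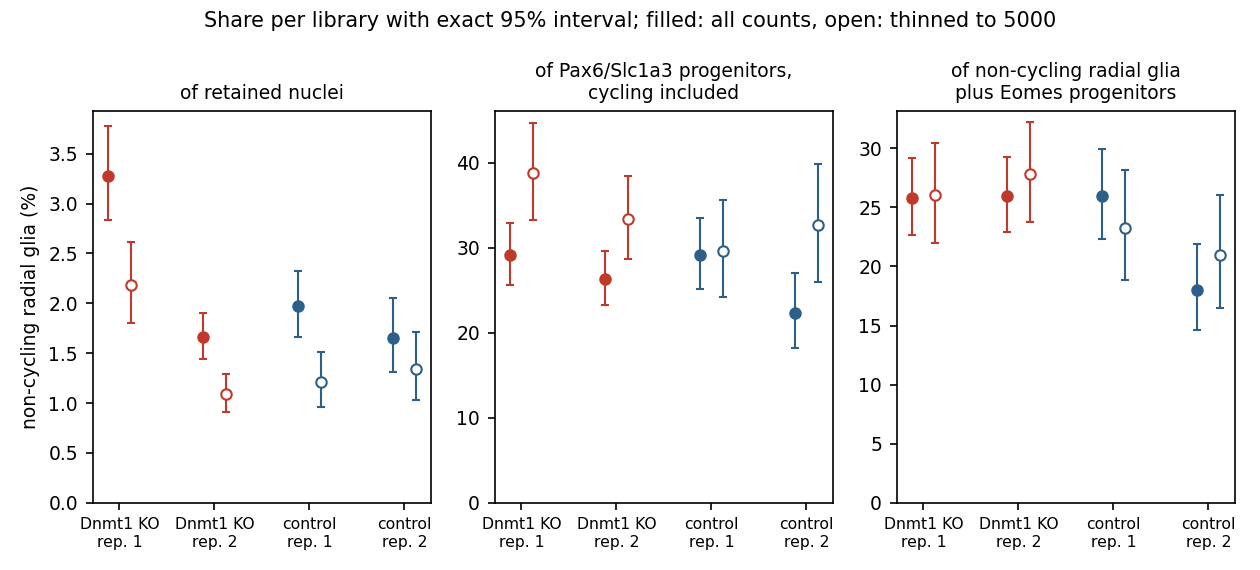
Percent of retained nuclei, of Pax6 and Slc1a3 progenitors and of non-cycling progenitors that were non-cycling radial glia, with 1 point per library and exact 95% intervals, filled for all counts and open after thinning to 5000 transcripts. In the first panel Dnmt1 KO replicate 1 lies at 3.28% and the other libraries between 1.65 and 1.97%.

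To find genes that differed between the genotypes, transcripts of the radial glia were summed per library, to 2010149, 2244664, 1626078 and 1503532 transcripts. With edgeR's quasi-likelihood test and Benjamini-Hochberg adjustment, 0 of 10610 genes (0%) passed an adjusted p of 0.05, and the smallest adjusted p was 0.177. At an unadjusted p under 0.05 were 454 genes (4.28%), 237 of them higher (2.23%) and 217 lower (2.05%) in the KO. Without Dnmt1 KO replicate 2 the edgeR count was 52, without any other library it was 0, and within batch 1 194 genes had an unadjusted p under 0.05. DESeq2 called 8 genes (0.0754%) and gave 197 an unadjusted p under 0.05 (1.86%). Its calls were *Dlgap2*, *Angpt1*, *Stat3*, *Megf11*, *Thsd7b*, *Sned1* and E330013P04Rik, higher in the KO, and *Zfp385b*, lower in it. Both Dnmt1 KO libraries lay above both controls for 14.9% of genes and below them for 19.2%.

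The smallest p belonged to *Angpt1*, angiopoietin 1, a ligand of the vascular receptor TIE2 (chromosome 15, 42288058 to 42540417, minus strand), at 73.6 and 87.3 CPM in KO libraries and 5.53 and 8.65 CPM in controls (log2 fold change 3.52, SE 0.294, edgeR unadjusted p 3.2e-05, adjusted p 0.177). Its transcripts were in 25 and 44 nuclei of KO libraries and 5 and 6 nuclei of controls, and the 5 highest nuclei of a library held 37.8 to 100.0% of them. *Dlgap2*, a scaffold of the postsynaptic density (chromosome 8, 14145850 to 14903418, plus strand), was at 374 and 337 CPM in KO libraries and 59.0 and 77.8 CPM in controls (log2 fold change 2.40, SE 0.201, edgeR unadjusted p 3.34e-05, adjusted p 0.177). Each KO library lay above each control for both genes, which were picked by their p in this comparison. *Dlgap2* transcripts were in 76 and 65 nuclei of KO libraries and 37 and 19 nuclei of controls, and the 5 highest nuclei of a library held 36.0 to 76.9% of them. Leaving out each library in turn kept the log2 fold change of *Dlgap2* at 2.23 to 2.60 and that of *Angpt1* at 3.25 to 3.87. With a minimum of 1 transcript of *Pax6* and *Slc1a3* that of *Angpt1* was 2.00, and with 3 it was 4.66. Among the 319 radial glia without a *Lef1* transcript, a selection added after the data were seen, the log2 fold change was 1.02 for *Dlgap2*, 1.73 for *Stat3*, 1.64 for *Prox1*, 0.74 for *Megf11*, 0.53 for *Prmt8* and 0.38 for *Slc1a2*.

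*Stat3*, the transcription factor of cytokine signalling in astrocyte formation (chromosome 11, 100775924 to 100830450, minus strand), was at 85.6 and 72.6 CPM in KO libraries and 23.4 and 22.6 CPM in controls (log2 fold change 1.80, SE 0.193, edgeR adjusted p 0.44). It was found in 70 and 58 nuclei of KO libraries and 25 and 11 nuclei of controls, and DESeq2 gave it an adjusted p of 0.0102. *Prox1*, a homeobox factor of hippocampal granule cells (chromosome 1, 189850232 to 189904637, minus strand), was at 85.6 and 69.9 CPM in KO libraries and 28.9 and 23.3 CPM in controls (log2 fold change 1.59, SE 0.215, edgeR adjusted p 0.854). *Slc1a2*, the astrocytic glutamate transporter, was at 198 and 186 CPM in KO libraries and 93.5 and 90.5 CPM in controls (log2 fold change 1.08, SE 0.155, edgeR adjusted p 0.854). In the rest *Slc1a2* was at 122, 117, 75 and 54.2 CPM (log2 fold change 0.87). *Megf11*, *Prmt8* and *Slc35f4* completed these genes. *Megf11* was at 173, 135, 59.0 and 37.9 CPM and *Prmt8* at 88.1, 72.2, 30.1 and 22.6 CPM, and *Slc35f4* had 20 and 41 transcripts in KO libraries and 1 in each control. For each of these genes both Dnmt1 KO libraries lay above both controls, as for 14.9% of all genes. The genes were picked by their p in this comparison, so this is a description only.

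In the opposite direction *Zfp385b*, a zinc finger gene (chromosome 2, 77240978 to 77649983, minus strand), was at 57.7 and 34.3 CPM in KO libraries and 145 and 178 CPM in controls (log2 fold change -1.80, SE 0.268, edgeR adjusted p 0.913), and DESeq2 called it. The transcripts were held by 17 and 31 nuclei of KO libraries and 19 and 8 nuclei of controls, and the 5 highest nuclei of a library accounted for 63.6 to 98.1%. *Irs2*, an adaptor of the insulin receptor, was at 19.9 and 24.9 CPM in KO libraries and 52.9 and 65.2 CPM in controls (log2 fold change -1.37, SE 0.244, edgeR adjusted p 0.948). *Cmss1* was at 427, 399.6, 714 and 919 CPM in the radial glia (log2 fold change -0.96, SE 0.201) and at 262, 297, 562 and 711 CPM in the rest (log2 fold change -1.21, SE 0.171). Its locus overlaps genes on the opposite strand and the counting is not stated to use strand, so its counts are uncertain. *Hs6st2*, a heparan sulfate sulfotransferase, was at 241, 318, 514 and 562 CPM (log2 fold change -0.92, SE 0.218, edgeR adjusted p 0.948), and *Lpar1*, a receptor for lysophosphatidic acid, at 143, 143, 236 and 227 CPM (log2 fold change -0.67, SE 0.157, edgeR adjusted p 0.948). *Simc1* was at 49.7, 45.4, 81.2 and 95.8 CPM, *Gipr*, the receptor of an incretin hormone, at 4.97, 3.56, 11.7 and 17.3 CPM, and *Kif26b* at 68.2, 71.3, 117 and 107 CPM. In each of these the Dnmt1 KO libraries were below the controls without overlap, as for 19.2% of all genes. These genes too were picked by their p in this comparison, so this is a description only.

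**Figure D5:**
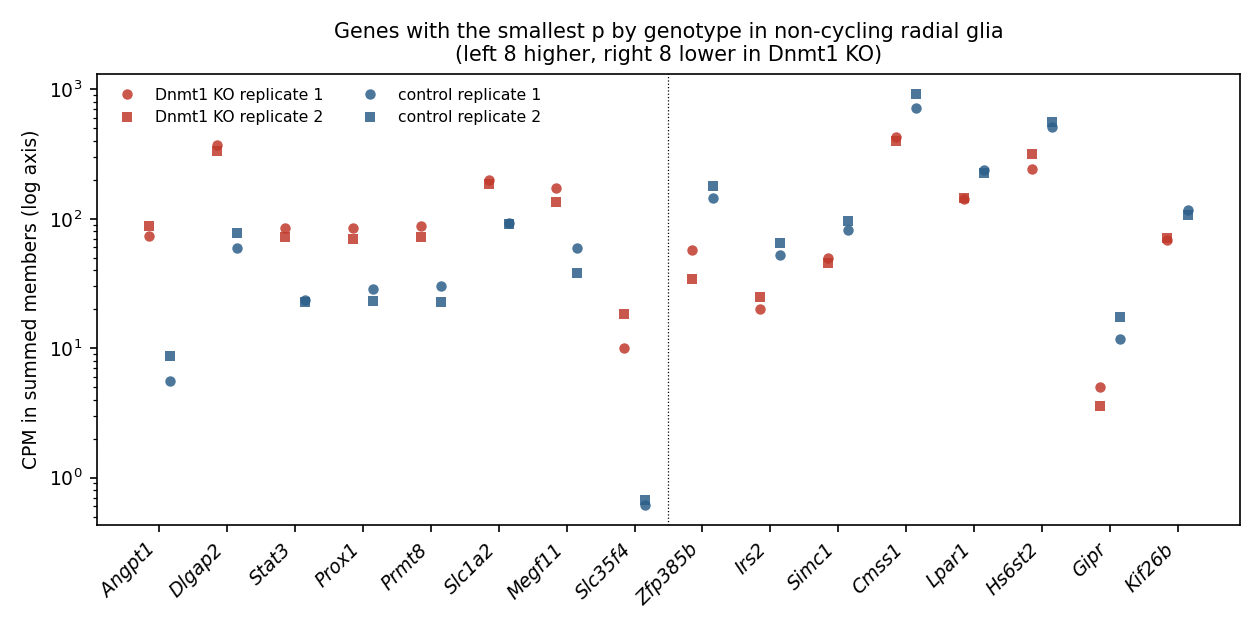
CPM on a log axis in non-cycling radial glia of the 16 genes with the smallest edgeR p by genotype, 8 higher and 8 lower in Dnmt1 KO, with 1 point per library (red Dnmt1 KO, blue control, circle replicate 1, square replicate 2). The 16 were picked by this comparison, so that their groups do not overlap follows from the choice. Both KO libraries were above both controls for 14.9% of all genes and below them for 19.2%. None of the 16 passed an adjusted p of 0.05.

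The radial glia genes themselves were compared across the genotypes through the lists. Of 301 list genes outside the rule, 225 were tested and 0 passed. At an edgeR unadjusted p under 0.05, 7 were higher and 10 lower, where 2.23% and 2.05% of all genes were. Their median log2 fold change, over all tested list genes, was -0.03 (-0.01 over all genes). Of the 19 tested genes of the radial glia list, 1 was above and 10 below both controls in both Dnmt1 KO libraries, where 14.9% and 19.2% of all genes were, with a median of -0.18. *Nes* had the smallest p of them (log2 fold change -0.73, SE 0.272, edgeR unadjusted p 0.0393, adjusted p 0.948). *Tnc* (log2 fold change 0.21, SE 0.361) and *Hes5* (log2 fold change 0.80, SE 0.368, edgeR unadjusted p 0.0751, adjusted p 0.948) did not pass either. Of the 20 S phase genes, 0 were above and 8 below the controls in both KO libraries (14.9% and 19.2% of all genes), with a median of -0.33. Of these, *Gins2*, a helicase cofactor, at 5.97, 4.01, 14.8 and 11.3 CPM, and *Slbp*, which binds histone mRNA, at 10.4, 10.2, 19.1 and 22.6 CPM, had an unadjusted p under 0.05. In the radial glia *Malat1*, a nuclear RNA, made up 1.04, 1.203, 0.924 and 0.904% of transcripts and mitochondrial transcripts 0.00915, 0.0156, 0.0267 and 0.0182%. *Malat1* was above and mitochondrial transcripts below both controls in both KO libraries, as for 14.9% and 19.2% of genes. The mitochondrial *mt-Rnr2* was at 150 CPM in control replicate 1 and at 37.3 to 70.8 CPM in the other libraries. The part of *Malat1* and of mitochondrial transcripts in these counts was not tested. Dnmt1 KO replicate 2 had the lowest level of many S phase genes, as given above for *Mcm2* to *Mcm5*. *Dnmt1* itself did not pass (log2 fold change -0.25, SE 0.262, edgeR adjusted p 0.959).

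Wnt pathway genes had 5 of 18 above and 3 below the controls, with a median of 0.24, where 14.9% and 19.2% of all genes were above and below. The cortical hem list, mostly *Rspo3* and with *Lmx1a* held at 0 by the rule, summed to 33.8 and 41.9 CPM in KO libraries and 20.3 and 27.3 CPM in controls. The part of hem transcripts in these counts was not tested. Of 19 area and midline patterning genes 7 were above and 2 below, with a median of 0.32, and of 20 genes of the FGF, Shh and BMP pathways 0 were above and 7 below, with a median of -0.17. *Lef1* (log2 fold change 1.62, SE 0.503, edgeR unadjusted p 0.02, adjusted p 0.948) and *Wnt5a*, a ligand of the cortical hem and its surroundings, at 34.8, 16.48, 4.92 and 4.66 CPM (log2 fold change 2.41, SE 0.485, edgeR unadjusted p 0.00303, adjusted p 0.948), were both highest in Dnmt1 KO replicate 1. With a library left out, the log2 fold change ran from 0.93 to 2.28 for *Lef1* and from 1.83 to 2.83 for *Wnt5a*. *Ephb1* was at 1283, 768, 592 and 354 CPM (log2 fold change 1.13, SE 0.350, edgeR unadjusted p 0.0199, adjusted p 0.948), and its log2 fold change ran from 0.76 to 1.57. Of the 15 tested Eph, ephrin and neuroligin genes, 2 were above and 2 below both controls in both KO libraries, each under the share of all genes. At an edgeR unadjusted p under 0.05, 1 of them was higher and 2 were lower in the KO, where 2.23% and 2.05% of all genes were. Of 15 gliogenic genes, 5 were above and 1 below the controls, beside 14.9% and 19.2% of all genes. *Zbtb20* was above them in both Dnmt1 KO libraries (log2 fold change 0.56, SE 0.242, edgeR unadjusted p 0.062, adjusted p 0.948). In the neurogenic list *Sox4* had a log2 fold change of -0.57 (SE 0.180) and *Sox11* of -0.63 (SE 0.237), *Mfap4*, on the same list, was at 14.9, 12.03, 4.92 and 7.32 CPM (log2 fold change 1.15, SE 0.383), and none of the Notch pathway genes had an unadjusted p under 0.05.

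Whether the genotype difference in radial glia departed from that in all other nuclei was tested with an interaction in edgeR, with the library as a block. Of 19652 genes 3 passed an adjusted p of 0.05 (0.0153%), and 721 were under 0.05 before adjustment (3.67%). DESeq2 made the same 3 calls. With Dnmt1 KO replicate 1 left out edgeR called 211 genes, with replicate 2 left out 367, and with control replicate 1 or 2 left out 112 or 27. *Dlgap2* was higher in KO radial glia and at 579.7, 672, 650.1 and 593 CPM in the rest (log2 fold change 2.44, SE 0.235, edgeR adjusted p 0.00622 for the interaction). *Zfp385b* was lower in the radial glia and at 280.2, 210.0, 168 and 183 CPM in the rest (log2 fold change -2.25, SE 0.195, edgeR adjusted p 0.00439). *Tafa1*, a secreted neural protein (chromosome 6, 96090088 to 96635542, plus strand), was at 7.46 and 332 CPM in KO libraries and 18.4 and 0.665 CPM in controls in the radial glia and at 15.1, 912, 360.2 and 60.5 CPM in the rest (log2 fold change 3.26, SE 0.362, edgeR adjusted p 0.0166). It was high in Dnmt1 KO replicate 2 in both populations, where 47 radial glia held it and 5 of them held 90.2% of its transcripts, and its log2 fold change in the radial glia ran from -0.40 to 7.94 when a library was left out. Without control replicate 1 its interaction was 5.29. With called doublets left out, 2 of these calls were lost, *Zfp385b* (-1.67, edgeR adjusted p 0.315) and *Tafa1* (2.22, edgeR adjusted p 0.250), and the same 2 were lost with a minimum of 1 transcript of *Pax6* and *Slc1a3* (-1.47 and 1.59, edgeR adjusted p 0.736 and 0.543). In the rest *Angpt1* was at 31.3, 67.3, 40.8 and 19.3 CPM and *Stat3* at 35.6, 24.1, 16.48 and 15.1 CPM. For *Angpt1* the interaction was 2.90 (SE 0.435, edgeR adjusted p 0.184).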

How the data were processed

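Nuclei were isolated from frozen tissue and barcoded by split-pool (Parse Evercode), and the authors made unfiltered transcript counts per gene and barcode with Trailmaker against GRCm39 (mm39 in the submitters' processing notes, which also name R 4.4.1 and Seurat 5.0.1.9001). The annotation release is not given in the sources used here. The deposited counts held 56884 genes, 147 symbols more than once. Barcodes with 1500 to 60000 transcripts were retained, 5640, 12064, 7047 and 4905 per library, with 96455278, 201141704, 153460857 and 182113821 transcripts in all barcodes. The study's mitochondrial limit was not applied. No cell annotation by the authors was used. It is not stated whether the counting used strand, so genes that overlap on opposite strands are uncertain.

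Counts of the chosen nuclei were summed per library and tested by genotype with edgeR 4.0.16 (filterByExpr, TMM, quasi-likelihood, R 4.3.3), and the sums of radial glia and of all other nuclei together with library as a block and a genotype by population interaction. p-values are Benjamini-Hochberg adjusted over all genes. SE is the log2 fold change divided by the square root of F. Shares were compared with a two-sided exact permutation test (scipy 1.17.1). Alternatives were DESeq2 1.42.0, no filter, minimums of 1 or 3 transcripts of *Pax6* and *Slc1a3*, scrublet doublets left out (scanpy 1.11.5, expected rate 5%), each library left out, a replicate block and thinning to 5000 transcripts. The members and lists were chosen with earlier results of these data known. Genes were named as up to 6 of highest level per list, the 15 highest over the rest, 8 per direction by edgeR p, 5 by interaction p and 8 per direction against cycling and *Eomes* progenitors. The genes of the *Meis2*, thinned-share and promoter descriptions were chosen after values were seen. Results for a few genes are not reported here. The 2 libraries of a genotype came from separate mice, per the study's methods.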

Additional observations from a re-analysis of the deposited data

Results flagged for a closer look

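The genotype difference in radial glia departed from that in all other nuclei for 3 genes, by an interaction term in edgeR. *Zfp385b* had an interaction of -2.25 on the log2 scale, with a genotype log2 fold change of -1.80 in the radial glia and 0.46 in the rest. *Dlgap2* had 2.44, with 2.40 in the radial glia and -0.01 in the rest. *Tafa1* had 3.26, and 746 of its transcripts came from 47 nuclei of Dnmt1 KO replicate 2. The calls of *Zfp385b* and *Tafa1* were lost with doublets left out (edgeR adjusted p 0.315 and 0.250) and with a minimum of 1 transcript of *Pax6* and *Slc1a3* (0.736 and 0.543).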

How the results depend on the processing

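The count of genes past the threshold by genotype was 0 and became 8 with DESeq2 and 29 without the low-count filter, and it ran from 0 to 52 when a library was left out, with 52 without Dnmt1 KO replicate 2. The interaction count of 3 became 5 with doublets left out, 13 with at least 3 transcripts of *Pax6* and *Slc1a3* and 140 without the filter, and it ran from 27 to 367 when a library was left out, where the lone library of a genotype was assumed to vary like the others. Without Dnmt1 KO replicate 1 it was 211, without replicate 2 367, without control replicate 1 112 and without control replicate 2 27. Differences in shares ran from -0.154 to 1.47 points of retained nuclei, from -1.39 to 5.37 points of *Pax6* and *Slc1a3* progenitors and from -0.0933 to 7.85 points of non-cycling progenitors when a library was left out. The lowest came without Dnmt1 KO replicate 1 for the first and without control replicate 2 for both others. With a minimum of 1 or 3 transcripts of *Pax6* and *Slc1a3* these differences were 1.31 or 0.247, 1.82 or 0.668 and 6.46 or 1.11 points, and for the third the groups did not overlap at 1 transcript, with doublets left out (3.57 points) or thinned, each with the smallest exact permutation p of 0.333. *Kif26b* turned to 0.0105 with at least 3 transcripts and the interaction of *Tenm1* to -0.311 with at least 1.

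Replicate numbers were not shown to pair the samples, as the deviations of same-numbered libraries correlated with 0.0502. With the replicate block, 0 genes passed by genotype (519 at an unadjusted p under 0.05) and the share differences are 0.657, 1.99 and 3.88 points by construction, since each number occurs once per genotype. Of the values for named genes under other settings, 205 kept direction and side of the threshold, 52 passed it anew, 4 lost it and 2 reversed. The cause of these changes was not tested. The radial glia of control replicate 2 were the fewest, at 81 nuclei.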

Other observations

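Several genes set one library apart among the radial glia, and were named after their values were seen. In Dnmt1 KO replicate 1, *Eya1*, a developmental phosphatase, was at 633 CPM against 123 to 194 CPM in the other libraries, the netrin receptor *Dcc* at 7673 CPM against 1952 to 2868 CPM and the protease *Adamts19* at 452 CPM against 8.65 to 123 CPM. In the same library the collagen *Col22a1* was at 8.46 CPM against 154 to 185 CPM and the adhesion protein *Ntm* at 241 CPM against 1378 to 1631 CPM. In the rest of that library *Dcc* was likewise highest, at 7973 CPM against 3098 to 3753 CPM, as were *Eya1*, at 129 CPM against 35.6 to 55.6 CPM, and *Adamts19*, at 79.9 CPM against 8.36 to 29.7 CPM, and *Col22a1* was lowest, at 6.19 CPM against 21.7 to 23.6 CPM.

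*Arhgap6* was at 847 CPM against 8.65 to 15.6 CPM in the radial glia of control replicate 1, where 95 of the 139 nuclei held a transcript, and at 255 CPM against 5.70 to 29.2 CPM in the rest. In control replicate 2 *Egfem1* was at 18.0 CPM against 240.5 to 696 CPM. Over 6560 genes, log2 CPM of the radial glia correlated between libraries with Pearson's r of 0.911 to 0.958, where genes are not independent replicates.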
